A study of Mus musculus with 24 samples.

Results

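The 6 measured genes of the mouse family of heparan sulfate 3-O-sulfotransferases were followed in retinas that lose their rod photoreceptors slowly. The members are the probe sets of the array whose transcript identifier belongs to a gene with a symbol starting Hs3st. There were 6 such probe sets, 1 for each of Hs3st1, Hs3st2, Hs3st3a1, Hs3st3b1, Hs3st5 and Hs3st6, among 1246 probe sets in all. The rule used names only and no measured value.

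Heparan sulfate is a sulfated sugar chain carried by cell surface and matrix proteoglycans, and its sulfate pattern sets which growth factors, enzymes and inhibitors bind it. The 3-O-sulfotransferases act late in its synthesis and add the rarest of its sulfate groups, at the 3-O position of glucosamine. The enzymes of the family differ in the chain sequences they accept. Those encoded by Hs3st1 and Hs3st5 can make the site that binds antithrombin, an inhibitor of blood clotting. Those encoded by Hs3st2, Hs3st3a1, Hs3st3b1 and Hs3st6, as well as Hs3st5, can make sites that bind glycoprotein D of herpes simplex virus.

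The mutant mice carried the P347S rhodopsin mutation, labelled RP mutant and P347S+, in a transgenic line, and the comparison mice were labelled normal and P347S-. Retinas of both genotypes were taken monthly from 1 to 4 months, with 3 arrays for each genotype and age, 24 in all, and the sex of the animals is given as unknown. Per the design text, degeneration could hardly be detected at 1 month and a large share of the rods was gone at 4 months, and the question was which genes respond at early, middle and late stages. Whether the 3 arrays of a group stand for 3 animals is not given, and p-values here therefore refer to the spread between arrays, which may be technical.

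Signals are log2 values made by RMA, a method that corrects, normalizes and summarises the probes of an Affymetrix array. They ran from 1.897 to 14.17 over all probe sets, and the array medians lay between 5.15 and 5.34. Precision is set by how few arrays each group has. Gnb1 was the 1 measured gene of a list of 12 rod genes, and no gene of the lists for cones, for bipolar and amacrine cells, for ganglion cells or for the interphotoreceptor matrix could be named on the array, so the tissue label could not be checked against its defining markers. Grifin, a gene of the lens, read between 10.16 and 11.33 in 3 arrays and between 5.69 and 8.77 in the other 21. The 3 were replicate 2 of the mutant retinas at 2 months, replicate 2 of the normal retinas at 2 months, and replicate 1 of the normal retinas at 4 months. Results are also given without those 3 arrays.

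Of the 6 members 2 changed together, Hs3st1 and Hs3st5, and 1 RefSeq start window of each is shown for that reason. Each holds 250 bases before and 50 after the start in build GRCm38.p6, 5′ to 3′ on the gene's strand, at chr5:39644582-39644881 (minus strand) for Hs3st1 and chr10:36506557-36506856 (plus strand) for Hs3st5. These starts lie 961 bases (Hs3st1) and 217 bases (Hs3st5) inside the outermost 5′ ends of the genes in the RefSeq gene table. The outermost end of Hs3st5 thus falls within its window, while that of Hs3st1 lies upstream of its window and is not covered. Capitals mark a CCAAT box (CCAAT) or a GC box (GGGCGG), searched on both strands.
Hs3st1: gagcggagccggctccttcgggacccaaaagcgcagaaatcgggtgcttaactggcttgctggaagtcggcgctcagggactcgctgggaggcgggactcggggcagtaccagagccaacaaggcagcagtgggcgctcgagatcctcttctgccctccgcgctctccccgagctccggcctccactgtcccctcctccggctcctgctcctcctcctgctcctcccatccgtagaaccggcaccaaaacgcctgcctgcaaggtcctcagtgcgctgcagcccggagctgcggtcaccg
Hs3st5: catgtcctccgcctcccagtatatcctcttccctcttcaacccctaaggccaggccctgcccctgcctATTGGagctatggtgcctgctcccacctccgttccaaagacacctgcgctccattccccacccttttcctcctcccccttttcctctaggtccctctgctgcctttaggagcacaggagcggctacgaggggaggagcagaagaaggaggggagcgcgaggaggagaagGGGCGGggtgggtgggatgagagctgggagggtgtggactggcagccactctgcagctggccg
The Hs3st5 window held 1 CCAAT box, read on the other strand, and 1 GC box, while the Hs3st1 window held 0 copies of both. Of all 32851 promoter windows in the table, 37.4% held a CCAAT box and 35.7% a GC box. Neither window held a TATA box (TATAAA, in 13.6% of all windows), a CRE (TGACGTCA, 1.79%), an E-box (CACGTG, 7.15%) or a STAT site (TTCNNNGAA, 8.3%). Their GC content was 67% for Hs3st1 and 63% for Hs3st5, against a median of 52.7% over all windows. This did not set the pair apart, as the windows of Hs3st2, Hs3st3a1 and Hs3st3b1 had 67.7%, 65.3% and 63.7%. Those windows held no TATA box or STAT site either, but they differed in the other motifs. The Hs3st2 window held 1 GC box and 1 CRE. That of Hs3st3a1 held 1 each of CCAAT box, GC box, CRE and E-box, and that of Hs3st3b1 held 2 CCAAT boxes and 2 GC boxes. A match is a stretch of letters and not a shown binding site.

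Over the 4 ages together, Hs3st1 and Hs3st5 were higher in mutant retinas and the other 4 members did not pass the test. Hs3st5, which encodes an enzyme that can make both kinds of site, was 1.19-fold higher (mean log2 difference of the 4 ages 0.25 ± 0.04, SE, n = 24 arrays, limma adjusted p = 0.000182). Hs3st1 was 1.18-fold higher (0.23 ± 0.05, limma adjusted p = 0.000895). Of the 6 members 2 were called higher and 0 lower at an adjusted p under 0.05, while of all 1246 probe sets 22.6% were called, 13.8% higher and 8.83% lower. With quantile normalization again 50.6% of the calls over all probe sets were higher, against 61.0% as deposited. The median difference was 0.04 over the 6 members and -0.03 over all probe sets. An exact permutation of the genotype labels within each age, adjusted over all probe sets, gave an adjusted p of 0.00586 for Hs3st5 and 0.0208 for Hs3st1. When the arrays were quantile normalized again, the Hs3st1 difference was 0.15 (limma adjusted p = 0.0165) and that of Hs3st5 0.21 (0.000643).

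Hs3st5 had no difference at 1 month that exceeded the spread and its largest difference at 4 months. At 1 month it read 7.64, 7.80 and 7.83 in mutant retinas, against 7.67, 7.69 and 7.87 in normal retinas, and the groups overlapped throughout. At 2 months it read 7.70, 7.51 and 7.68 in mutant retinas, against 7.49, 7.43 and 7.42 in normal retinas. The lowest mutant array of 2 months was just above the highest normal one, a separation that 9.07% of all probe sets had at that age, and it was the mutant array with the high Grifin signal. At 3 months the mutant arrays read 7.86, 7.95 and 8.01, against 7.75, 7.42 and 7.70 in normal retinas. At 4 months the mutant arrays read 7.90, 7.98 and 8.02, against 7.45, 7.499 and 7.48 in normal retinas. The gap between the groups at 4 months was wider than the whole range within either group.

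The log2 difference of Hs3st5 was 0.01 ± 0.08 at 1 month (SE, limma adjusted p = 0.99) and 0.18 ± 0.08 at 2 months (0.323), and neither passed. It was 0.31 ± 0.08 at 3 months (limma adjusted p = 0.0209) and 0.49 ± 0.08 at 4 months (0.000652), the latest being a 1.41-fold higher signal. With the 6 arrays of 3 months alone its limma adjusted p was 0.127. The call at 3 months was also lost without mutant retinas of 3 months replicate 2 (limma adjusted p = 0.0614) or replicate 3 (0.0839), and without normal retinas of 3 months replicate 2 (0.132).

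Hs3st1, whose enzyme is best known for making antithrombin-binding heparan sulfate, followed a similar course. At 1 month it read 6.83, 6.94 and 7.11 in mutant retinas, against 7.09, 6.94 and 7.14 in normal retinas. At 2 months it read 6.93, 6.72 and 7.03 in mutant retinas, against 6.81, 6.63 and 6.63 in normal retinas. The groups overlapped at both of these ages. At 3 months the mutant arrays read 7.22, 7.36 and 7.39, against 6.996, 6.77 and 6.94 in normal retinas. At 4 months the mutant arrays read 7.30, 7.25 and 7.13, against 6.81, 6.79 and 6.86 in normal retinas. All mutant arrays of 3 and 4 months were above all normal arrays of the same age, although the lowest mutant array of 4 months, at 7.13, was just below the highest normal array of 1 month, at 7.14.

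The log2 difference of Hs3st1 was -0.10 ± 0.09 at 1 month (SE, limma adjusted p = 0.877) and 0.20 ± 0.09 at 2 months (0.314). It passed at 3 months with 0.42 ± 0.09 (1.34-fold, limma adjusted p = 0.00603) and at 4 months with 0.41 ± 0.09 (1.33-fold, 0.00478). With quantile normalization again, the difference at 3 months was 0.27 (limma adjusted p = 0.0429). With the 6 arrays of 3 months alone its adjusted p was 0.0612. Its probe set name carries the letter s, so its probes may match further transcripts too, as do the names for Hs3st2 and Hs3st3a1.

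At 3 months 2 of the 6 members were called higher, when 12% of all probe sets were called and 6.66% called higher. At 4 months again 2 were called higher, when 12.9% of all probe sets were called and 9.47% called higher. With quantile normalization again 53.5% of all calls at 4 months were higher, against 73.3% as deposited. Both ages called the same members, Hs3st1 and Hs3st5, and 5.06% of all probe sets were called higher at both. Mutant arrays lay wholly above normal arrays for 2 members at 3 months (13.2% of all probe sets) and for 4 members at 4 months (17.1%), where Hs3st2 and Hs3st3a1 joined them. Hs3st1 and Hs3st5 were separated at both ages, as were 9.31% of all probe sets. No member passed in limma at 1 month, where 0.321% of all probe sets were called in either direction. At that age 0 members had an unadjusted p under 0.05, as had 9.23% of all probe sets. At 2 months again 0 passed in limma, and 3.45% of all probe sets were called. At that age 3 members had an unadjusted p under 0.05 (Hs3st1, Hs3st5 and Hs3st3a1), against 14.4% of all probe sets. Without the 3 arrays of high Grifin signal Hs3st5 differed by 0.26 over the 4 ages (limma adjusted p = 0.000794) and by 0.48 at 4 months (0.00537), and Hs3st1 by 0.25 (0.00171) and 0.40 (0.0164).

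**Figure D1:**
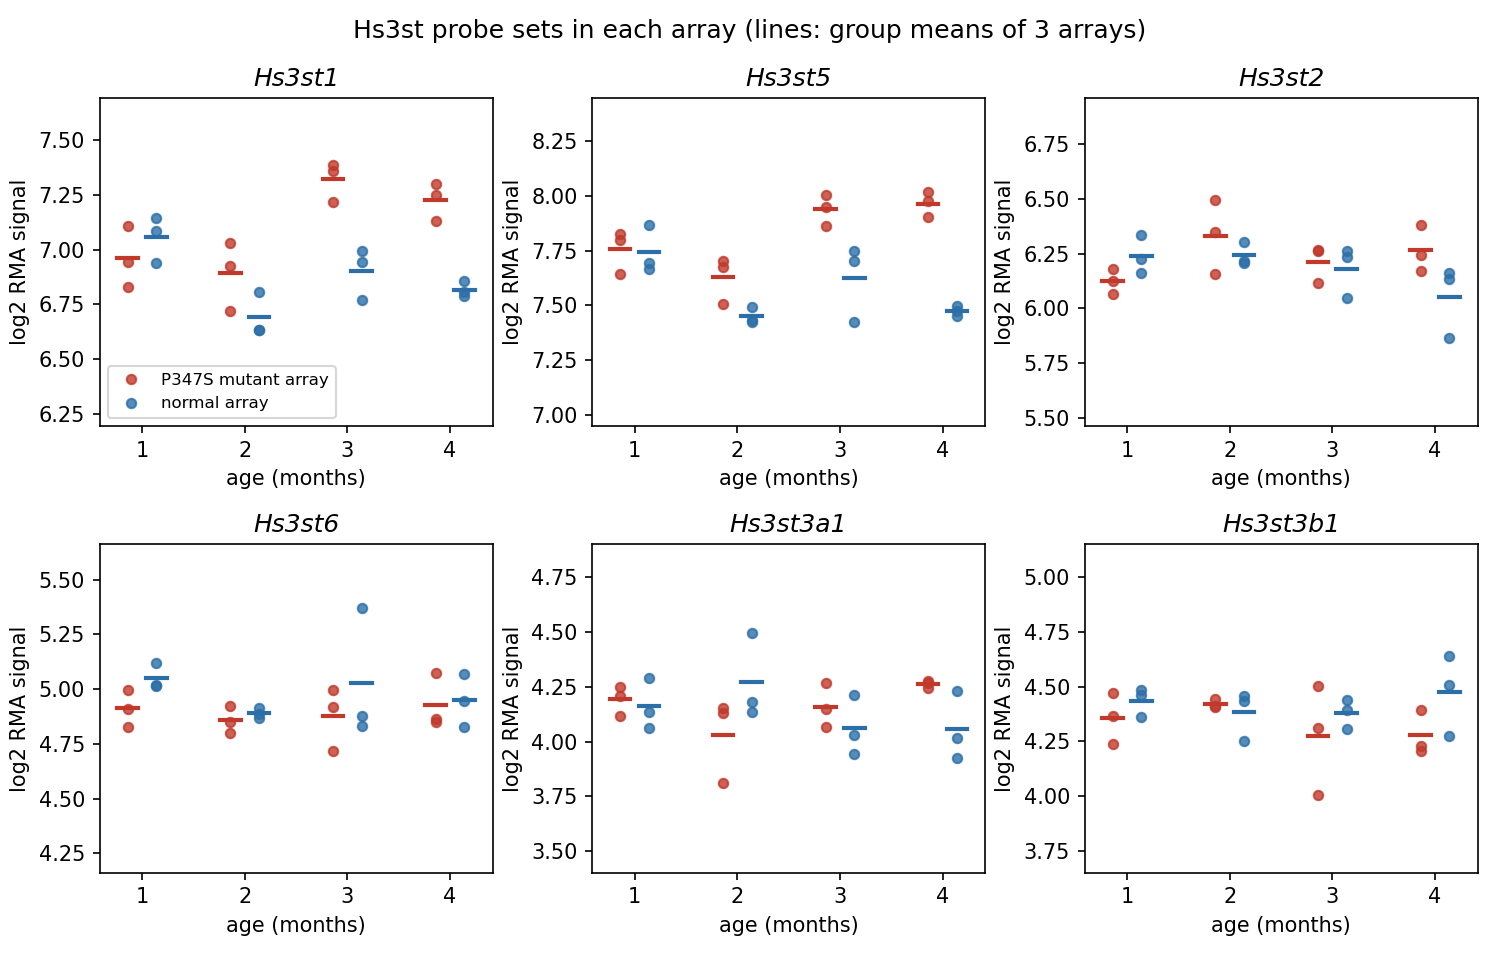
Log2 RMA signal (vertical axis) of the 6 Hs3st probe sets by age in months (horizontal axis), with a point for each array, P347S mutant left of normal, and a line at each group mean of 3 arrays. All panels span the same log2 range, and Hs3st1 and Hs3st5 are the members whose mutant arrays lie above all normal arrays at both 3 and 4 months.

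The remaining members of the family did not pass at any age or over the 4 ages. Hs3st2, known as a brain-rich member, ranged from 6.07 to 6.49 in mutant arrays and from 5.87 to 6.34 in normal arrays. At 4 months it read 6.25, 6.38 and 6.17 in mutant retinas, against 6.14, 6.16 and 5.87 in normal retinas, without overlap but with normal replicate 2 only just below mutant replicate 3. The difference at 4 months was 0.21 ± 0.09 (SE, limma adjusted p = 0.163). Over the 4 ages it was 0.05 ± 0.05 with a 95% confidence interval of -0.04 to 0.15 (limma adjusted p = 0.416), and its sign turned to -0.01 with quantile normalization again.

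Hs3st3a1 and Hs3st3b1 encode closely related enzymes and were dim, with mean signals of 4.15 and 4.37, below the median of 5.26 over all probe sets. Background is not known at such levels, so differences there may be understated. Hs3st3a1 read 4.24, 4.27 and 4.28 in mutant retinas of 4 months, against 3.93, 4.23 and 4.02 in normal retinas, a difference of 0.21 ± 0.11 (SE, limma adjusted p = 0.26). Its arrays ranged from 3.81 to 4.28 in mutant retinas and from 3.93 to 4.498 in normal retinas. At 2 months it differed by -0.24 ± 0.11 (0.31), the opposite direction. Hs3st3b1 ranged from 4.004 to 4.501 in mutant retinas and from 4.25 to 4.64 in normal retinas. It differed by -0.20 ± 0.11 at 4 months (limma adjusted p = 0.278), where the groups overlapped. Over the 4 ages the 95% confidence intervals were -0.09 to 0.14 for Hs3st3a1 and -0.20 to 0.03 for Hs3st3b1.

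Hs3st6, a further member of the group that makes glycoprotein D sites, had a mean signal of 4.94 and ranged from 4.72 to 5.08 in mutant retinas and from 4.83 to 5.37 in normal retinas. At 1 month it read 4.91, 4.998 and 4.83 in mutant retinas, against 5.01, 5.02 and 5.12 in normal retinas. Those mutant arrays were all below the normal ones, as were the arrays of 11.7% of all probe sets at that age, and the difference of -0.14 ± 0.11 did not pass (SE, limma adjusted p = 0.839). Over the 4 ages it differed by -0.08 ± 0.06, with a 95% confidence interval of -0.20 to 0.03 (limma adjusted p = 0.284). For these 4 members a p above the threshold does not show that the genotypes were alike. Whether Hs3st1 and Hs3st5 differ from the other members in their response was not tested.

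**Figure D2:**
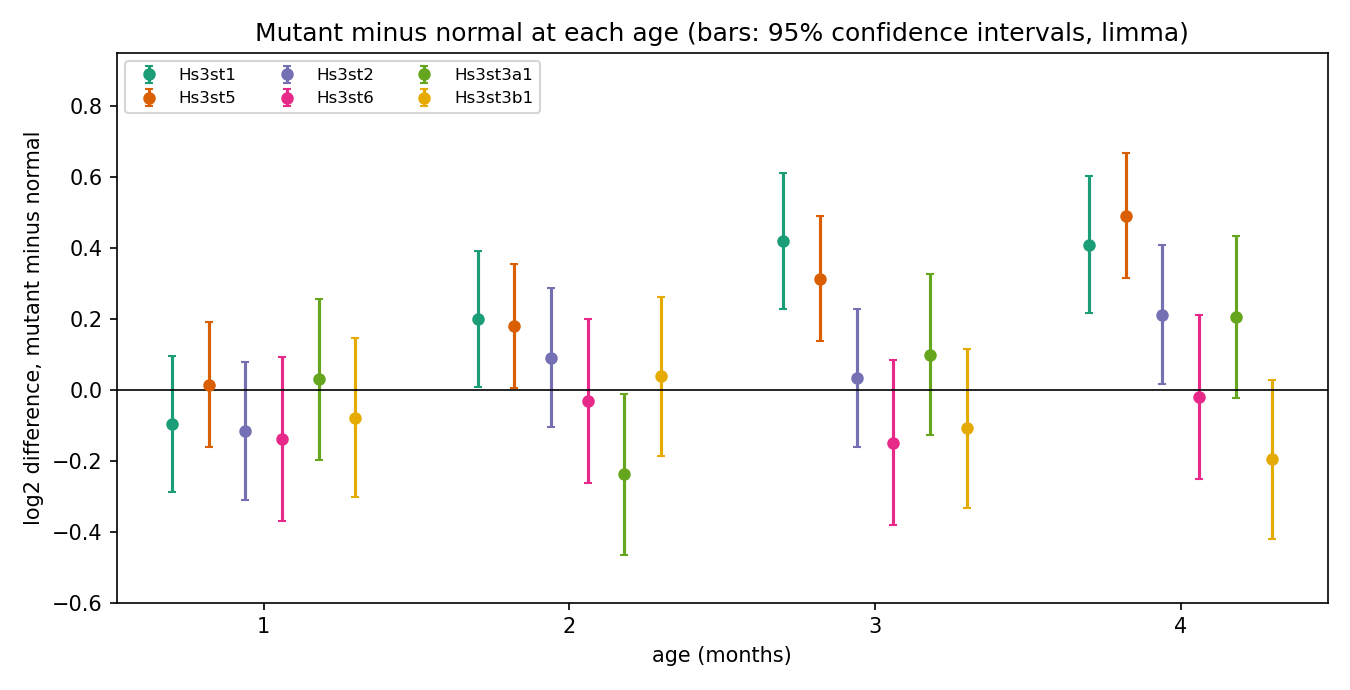
Log2 difference, mutant minus normal (vertical axis), at each age in months (horizontal axis) for the 6 members, with limma's 95% confidence intervals as bars. Hs3st1 and Hs3st5 rise above 0.3 at 3 and 4 months, while the lower end of every interval of the other members is at 0.02 or below.

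Whether the difference between genotypes changed with age was asked with a moderated F test. It called 0 of the 6 members and 0.321% of all probe sets. Hs3st1 had an unadjusted p of 0.00223 (limma adjusted p = 0.116) and Hs3st5 one of 0.00527 (0.173). They were the 2 members with an unadjusted p under 0.05, against 14.4% of all probe sets. The genotype difference of 4 months less that of 1 month was 0.51 ± 0.13 for Hs3st1 and 0.48 ± 0.12 for Hs3st5 (SE, limma adjusted p = 0.0786 for both), and 0.241% of all probe sets were called in that contrast. An increase of the difference from 1 to 4 months thus did not pass.

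Within mutant retinas the signal of Hs3st1 (limma F test, adjusted p = 0.00832) and of Hs3st5 (0.0243) changed with age, 2 of 6 members against 11.1% of all probe sets. For Hs3st1 the mutant means were 6.96 ± 0.14, 6.89 ± 0.16, 7.32 ± 0.09 and 7.23 ± 0.09 from 1 to 4 months (SD, n = 3 each). For Hs3st5 they were 7.76 ± 0.10, 7.63 ± 0.11, 7.94 ± 0.07 and 7.97 ± 0.06. Both genes had their lowest mutant mean at 2 months and their 2 highest at 3 and 4 months. The Hs3st5 call was lost without the arrays of high Grifin signal (limma adjusted p = 0.155) and without mutant retinas of 2 months replicate 2 (0.108) or replicate 3 (0.0501). With quantile normalization again, neither Hs3st1 (limma adjusted p = 0.0699) nor Hs3st5 (0.318) passed. The mutant mean of 4 months less that of 1 month was 0.27 ± 0.09 for Hs3st1 (SE, limma adjusted p = 0.137). For Hs3st5 it was 0.21 ± 0.08 (0.241), and neither passed. Both genes also had their lowest normal mean at 2 months.

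Within normal retinas the F test over age called 0 of the 6 members in limma and 0.722% of all probe sets. At an unadjusted p under 0.05 there were 2 members (Hs3st1 and Hs3st5), against 14.9% of all probe sets. The normal means of Hs3st1 were 7.06 ± 0.11, 6.69 ± 0.10, 6.90 ± 0.12 and 6.82 ± 0.04 from 1 to 4 months (SD, n = 3 each, limma adjusted p = 0.131). Those of Hs3st5 were 7.74 ± 0.11, 7.45 ± 0.04, 7.63 ± 0.18 and 7.48 ± 0.02 (0.135). Their highest normal mean was thus at 1 month, so that the difference at 4 months stands against a normal group that read 0.24 lower for Hs3st1 and 0.27 lower for Hs3st5 than normal retinas of 1 month on the log2 scale.

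Ordered by mean over the 8 groups, Hs3st5 was highest in mutant retinas of 4 and 3 months, followed by mutant and normal retinas of 1 month, mutant retinas of 2 months, and normal retinas of 3, 4 and 2 months. The step from mutant retinas of 3 months to mutant retinas of 1 month was the 1 step between neighbours at which the arrays did not overlap. Hs3st1 was highest in mutant retinas of 3 and 4 months and lowest in normal retinas of 2 months, and its arrays overlapped between all neighbours in the order. The same overlap between all neighbours held for Hs3st2, Hs3st3a1, Hs3st3b1 and Hs3st6.

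Hs3st1 and Hs3st5 moved together from array to array. Over the 24 arrays Pearson's r of their log2 signals was 0.92 and Spearman's rho 0.92, given as a description because the arrays share groups and normalization. For each of the pair the other was the most similar of 962 further probe sets with a gene name. Pearson's r was 0.89 within the 12 mutant arrays, 0.90 within the 12 normal arrays, 0.91 in the 21 arrays without the high Grifin signal and 0.93 without the 2 arrays farthest from the Hs3st5 median. It was 0.84 with quantile normalization again. After each group's mean was subtracted it was 0.72, where Hs3st5 was in place 10 for Hs3st1 and Hs3st1 in place 4 for Hs3st5. Other pairs among the 6 members had r between -0.41 (Hs3st3b1 with Hs3st5) and 0.35 (Hs3st3a1 with Hs3st5).

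**Figure D3:**
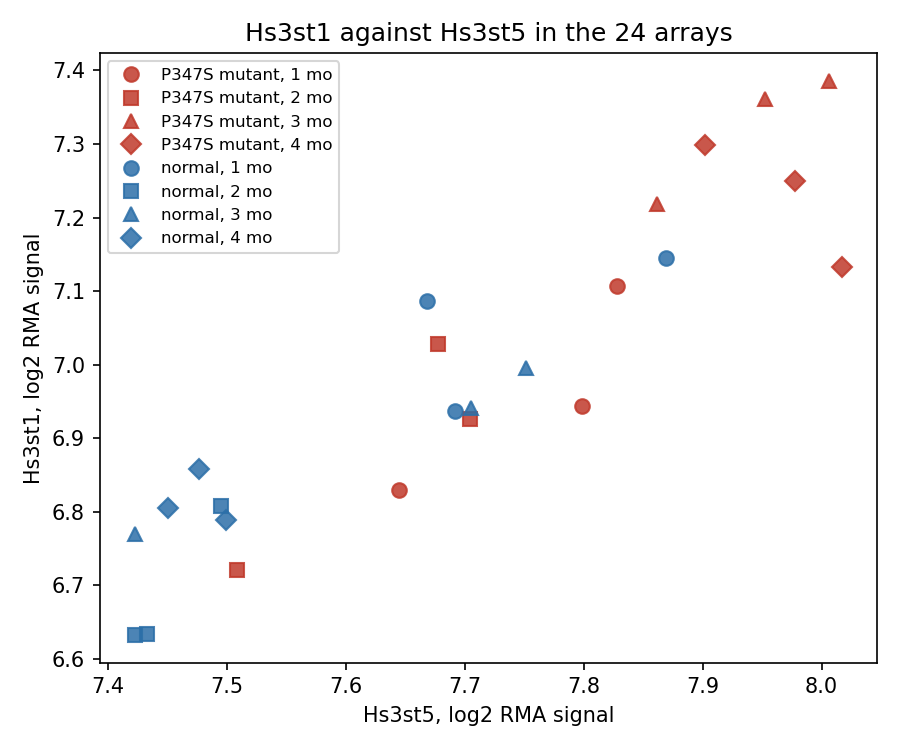
Log2 RMA signal of Hs3st1 (vertical axis) against that of Hs3st5 (horizontal axis) in the 24 arrays, with colour for genotype and marker shape for age. The 6 mutant arrays of 3 and 4 months lie at the upper right and Pearson's r over all arrays is 0.92.

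Genes of other families came next by Pearson's r over the 24 arrays. For Hs3st1 these were Cmas, which activates sialic acid for transfer to glycans (r = 0.89), and Cd83, a membrane protein of immune cells (0.88). For Hs3st5 they were Slc35f1, a member of a solute carrier family (0.90), and St8sia3, a sialyltransferase that joins sialic acids to each other (0.88). Each of these 4 was higher in mutant than in normal retinas over the 4 ages. The differences were 0.13 for Cmas (limma adjusted p = 0.0173), 0.23 for Cd83 (0.0104), 0.29 for Slc35f1 (0.000175) and 0.44 for St8sia3 (6.52e-06). With Grifin, r was -0.44 for Hs3st1 and -0.46 for Hs3st5.

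Around the family, the other genes of heparan sulfate moved in both directions. There were 42 such genes measured, with the probe set of highest mean signal taken for each. Over the 4 ages 10 were higher in mutant retinas, 6 were lower and 26 did not pass, against 13.8% higher and 8.83% lower among all probe sets. The median of the 42 was 0.01. The other scalings turned no direction among the 16 genes that passed, and of the 42 genes 11 were higher and 5 lower after centring each array on its median and 8 higher and 8 lower after quantile normalization again. The genes are taken in the order in which they act. Below, a gene that rose or fell was higher or lower in mutant than in normal retinas, which is not a change with age.

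Of 5 genes that build the linker between protein and chain 0 rose and 2 fell, Xylt1 (-0.16 ± 0.04, SE), which starts the linker, and B4galt7 (-0.13 ± 0.04), which extends it and did not pass with each array centred on its median (-0.11, limma adjusted p = 0.128). Of 5 genes listed under chain polymerisation 1 rose, Extl2 (0.26 ± 0.05), which is not itself a subunit of the polymerase. The 2 that fell were the polymerase subunits Ext1 (-0.61 ± 0.12) and Ext2 (-0.14 ± 0.04). Of 5 genes for N-sulfation and epimerisation 1 rose, Ndst3 (0.26 ± 0.06, limma adjusted p = 0.0018), which sulfates the nitrogen of glucosamine, and 0 fell. Of 4 genes for 2-O and 6-O sulfation 1 rose, Hs6st2 (0.34 ± 0.06, limma adjusted p = 0.000203), and 0 fell. Ndst3 did not pass with quantile normalization again (0.14, limma adjusted p = 0.0834).

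Of 4 genes that edit the finished chain outside the cell 2 rose, Sulf1 (0.72 ± 0.05, SE), which removes 6-O sulfates, and Hpse (0.31 ± 0.09), which cuts the chain, while Hpse2 (-0.18 ± 0.05), an inactive relative of Hpse, fell. Of 3 measured genes that supply the sulfate donor PAPS, which every sulfotransferase uses, 1 rose, Papss1 (0.18 ± 0.04, limma adjusted p = 0.00583), and 0 fell. Papss2 did not pass over the 4 ages (-0.22 ± 0.11, limma adjusted p = 0.166) but did with quantile normalization again (-0.29, 0.0427). At 2 months Papss2 was lower in mutant retinas (-0.97 ± 0.23, limma adjusted p = 0.02). Of 4 lysosomal enzymes of heparan sulfate breakdown 1 rose, Gusb (0.28 ± 0.08, limma adjusted p = 0.0135). Gusb did not pass with quantile normalization again (0.16, limma adjusted p = 0.0513). Of 12 core proteins 3 rose, Gpc3 (0.46 ± 0.09), Agrn (0.31 ± 0.07) and Gpc4 (0.28 ± 0.08), and 1 fell, Gpc2 (-0.27 ± 0.06).

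**Figure D4:**
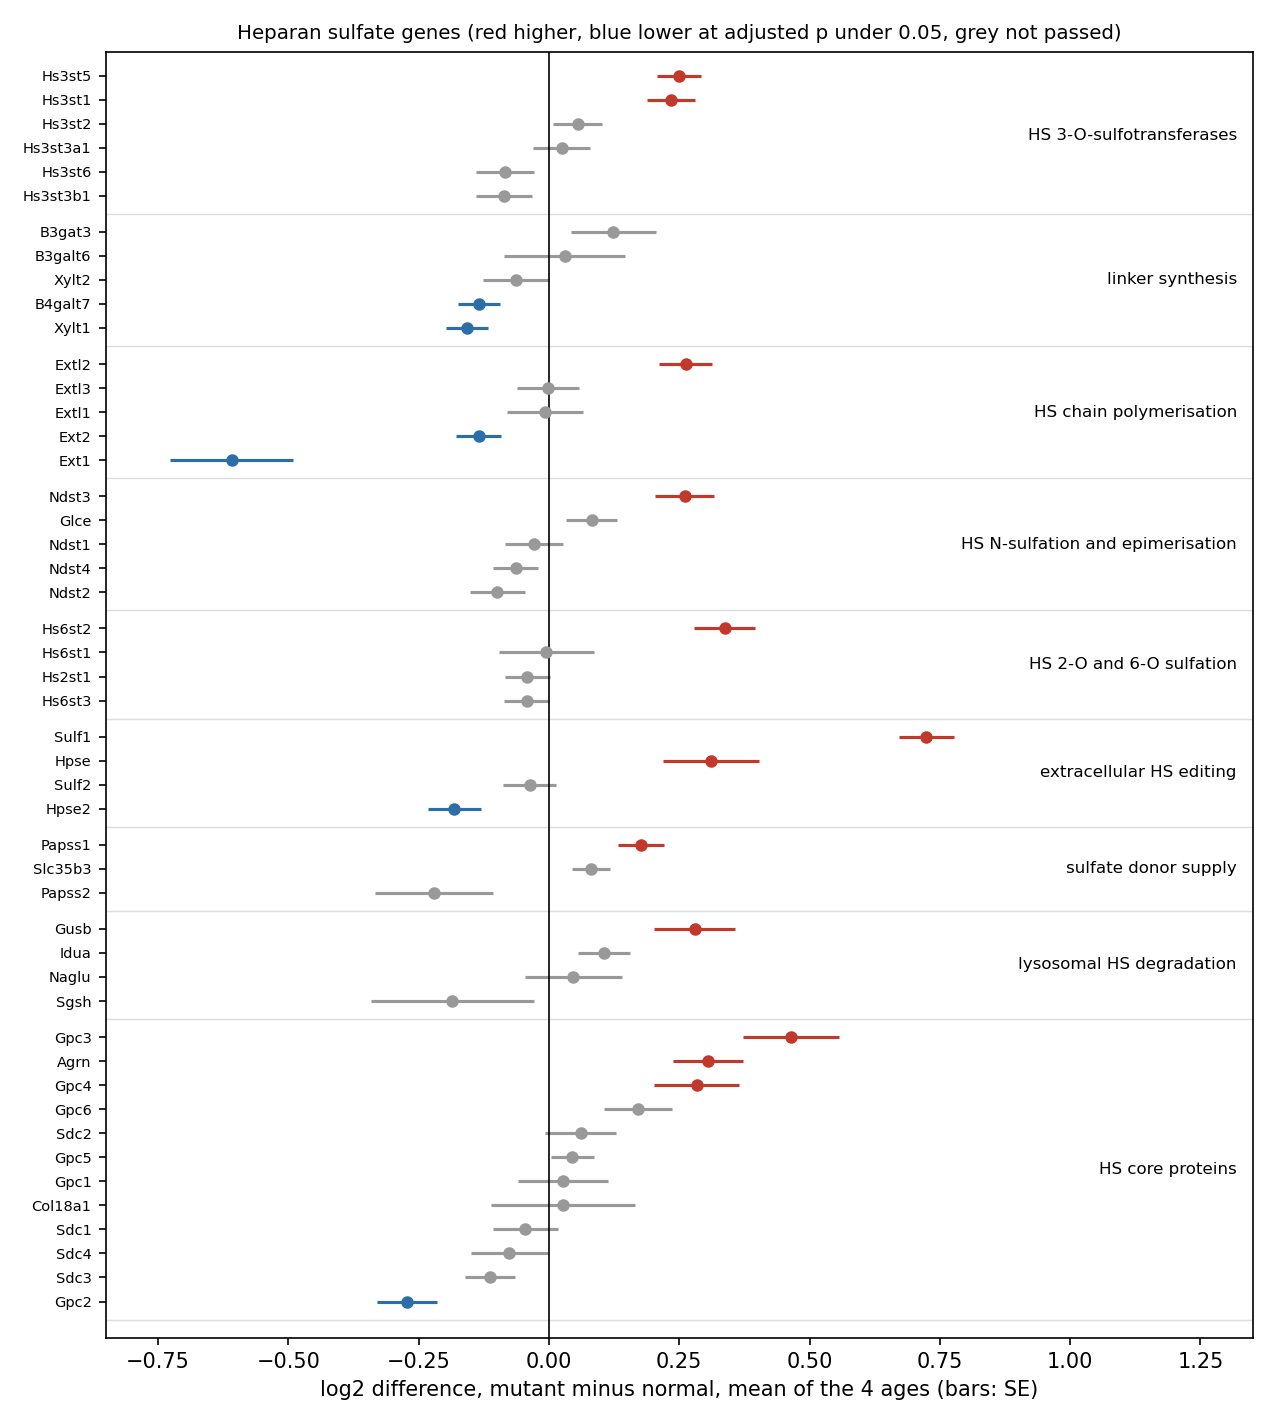
Log2 difference, mutant minus normal, as the mean of the 4 ages (horizontal axis, bars are SE) for the 6 Hs3st members and 42 other heparan sulfate genes grouped by step (vertical axis). Red points were higher and blue points lower in mutant retinas at an adjusted p under 0.05, and Hs3st5 and Hs3st1 are the red points of the first group.

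At 3 and 4 months, when Hs3st1 and Hs3st5 were higher, Hs6st2 was higher by 0.47 ± 0.12 (SE, limma adjusted p = 0.0135) and 0.78 ± 0.12 (0.000174). Ndst3 was higher by 0.38 ± 0.11 at 3 months (limma adjusted p = 0.0329), and its value of 0.33 ± 0.11 at 4 months did not pass (0.0538). Sulf1, which removes 6-O sulfates, was higher by 0.75 ± 0.11 at 3 months (limma adjusted p = 0.000405) and 0.93 ± 0.11 at 4 months (2.87e-05). Sulf1 also passed at 1 month (0.72 ± 0.11, limma adjusted p = 0.000838) and 2 months (0.49 ± 0.11, 0.0127). The core protein gene Agrn was higher by 0.51 ± 0.13 at 3 months (limma adjusted p = 0.0199) and 0.48 ± 0.13 at 4 months (0.0209). Of the 42 other genes 5 rose and 3 fell at 3 months, when 12% of all probe sets were called, and 6 rose and 1 fell at 4 months, when 12.9% were called. The 3 that fell at 3 months were Xylt1 (-0.33 ± 0.08, limma adjusted p = 0.0107), Hpse2 (-0.34 ± 0.10, 0.0326) and Gpc2 (-0.38 ± 0.11, 0.0326). The 1 that fell at 4 months was Ext1 (-0.84 ± 0.24, limma adjusted p = 0.0209).

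In whole retina a change in the number of cells of a type and a change in RNA per cell cannot be told apart. Markers of microglia and macrophages moved with the genotype as well. Of 11 listed 4 were measured (Csf1r, Cx3cr1, Adgre1 and Siglech) and all 4 were higher in mutant retinas over the 4 ages. Their summed signal on the log2 scale was 8.84 to 9.66 in mutant retinas of 3 months, against 8.20 to 8.31 in normal retinas, and 8.89 to 9.44 in mutant retinas of 4 months, against 8.02 to 8.29 in normal retinas. At 1 month it was 8.66 to 8.95 in mutant retinas, against 7.99 to 8.37 in normal retinas, and 0 of the 4 markers passed at that age (limma adjusted p from 0.0903 for Adgre1 to 0.301 for Siglech). At 2 months the summed signal was 8.81 to 9.03 in mutant retinas, against 8.01 to 8.10 in normal retinas. Csf1r (limma adjusted p = 0.0244) and Cx3cr1 (0.00463) passed at 2 months, while Adgre1 (0.0511) and Siglech (0.12) did not. By this sum the genotypes were apart at all 4 ages.

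Of 11 genes listed for Müller glia and astrocytes 5 were measured, and other cells express all 5 as well. Over the 4 ages 4 were higher in mutant retinas (Icam1, Vcam1, Cd44 and Fgf2) and Lgals1 did not pass. Gfap, Glul and Rlbp1 of the list were not measured. Fgf2 was dim, with group medians of 3.28 to 3.84, and the 25th percentile of mean signal over all probe sets was 3.83. The summed signal of the 5 was 9.64 to 10.22 in mutant retinas of 3 months, against 9.14 to 9.40 in normal retinas, and 9.86 to 10.32 in mutant retinas of 4 months, against 9.17 to 10.04 in normal retinas. At 1 month it was 9.62 to 9.67 in mutant retinas, against 9.23 to 9.496 in normal retinas. At 2 months it was 9.74 to 10.77 in mutant retinas, against 9.05 to 10.52 in normal retinas. By this sum, in which Lgals1 and Cd44 are the brightest genes, the groups were apart at 1 and 3 months and overlapped at 2 and 4 months. Taken singly, Icam1, Vcam1 and Fgf2 had all mutant arrays above the normal ones at 2 and 4 months, Cd44 at 4 months and Lgals1 at neither. At 4 months Icam1 (1.61 ± 0.23, SE, limma adjusted p = 0.000156) and Vcam1 (1.30 ± 0.17, 7.92e-05) passed. Cd44 (limma adjusted p = 0.0735), Fgf2 (0.128) and Lgals1 (0.874) did not pass at that age. No marker of the 5 passed at 1 month (limma adjusted p from 0.155 for Fgf2 to 0.99 for Lgals1). Gnb1, the measured rod gene, which other cells express as well, was lower by 0.21 ± 0.06 in mutant retinas over the 4 ages (SE, limma adjusted p = 0.0121). Of 8 endothelial markers 3 were measured, and over the 4 ages 2 were higher in mutant retinas, Cd34 and Mcam. Pecam1 did not pass (-0.05 ± 0.08, SE, limma adjusted p = 0.712). By age, Mcam passed at 1 month (0.67 ± 0.11, limma adjusted p = 0.0036) and Cd34 at 4 months (0.67 ± 0.14, 0.00388), and neither passed at another age. Of 7 connective tissue markers 4 were measured and 0 passed over the 4 ages. Their summed signal was 7.11 to 7.26 in mutant retinas of 2 months, against 6.94 to 8.72 in normal retinas, and 7.28 to 8.04 in mutant retinas of 3 months, against 6.91 to 7.02 in normal retinas. At 4 months it was 7.12 to 7.92 in mutant retinas, against 6.90 to 7.46 in normal retinas, so that the groups were apart at 3 months and overlapped at 2 and 4 months. With Grifin and Dcn, a connective tissue gene, as covariates Hs3st1 differed by 0.47 at 3 months (limma adjusted p = 0.00581) and Hs3st5 by 0.31 (0.0383), against 0.42 and 0.31 without them. The part of microglia, glia, endothelium and rods in the Hs3st1 and Hs3st5 differences was not tested.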

How the data were processed

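RNA of mouse retinas was hybridised as biotinylated cRNA to an Affymetrix array, per the labels' protocols. The deposited values are log2 signals made with RMA, per the submitters' processing notes; its version, the arrays normalized together and any filter are not given in the sources used here. All 1246 probe sets were used unscaled. Transcript accessions in the probe set names were matched without versions to RefSeq genes (GRCm38.p6): 963 matched, to 909 genes, and 283 carry no gene name here, while 261 identifiers in the file are UCSC's. Promoter windows are RefSeq's in the same build. Of the 6 members 5 had one. No coordinates are given for the probe sets, whose build is not stated.

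One model with a mean per group was fitted to 24 arrays with limma 3.58.1 in R 4.3.3 (lmFit, eBayes, 16 residual and 4.37 prior degrees of freedom), with 2-sided tests, Benjamini-Hochberg adjustment over 1246 probe sets and a threshold of 0.05. With 3 arrays against 3 the smallest exact 2-sided p is 0.1, so no exact test of a single age was run. The script was tested on simulated data. The 4 minus 1 month contrasts were added to the fixed ones.

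Every member is named, with up to 4 genes per pathway list by smallest p over the 4 ages among those passed. Papss2 is named in addition for its call at 2 months. For each member passed in some contrast, the 3 most similar probe sets of other genes by Pearson's r are named. None of 5 listed proteins that bind 3-O-sulfated chains was measured. The members, lists and alternatives were chosen with earlier results of these data known. Mutant and normal arrays of one number deviated together from their group means, with r above 0.1, in 3 of 12 pairs, all 3 of them the pairs of 2 months (0.25 to 0.66), and in no pair of the other ages. The labels name no shared animal, litter or day, so the replicate number entered as a block in alternatives, which matter most for 2 months. The alternatives were other scalings, a filter at the 25th percentile of mean signal, eBayes options, array weights, covariates, blocks, subsets of arrays and an exact permutation test.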

Additional observations from a re-analysis of the deposited data

How the results depend on the processing

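Over the 4 ages Hs3st1 and Hs3st5 were called under all 11 alternatives and without any 1 of the 24 arrays, with log2 differences of 0.15 to 0.26 and 0.21 to 0.28 under the alternatives. At 4 months 2 members were called, or 3 with array weights (Hs3st2 in addition). At 3 months the count of 2 went to 0 with the 6 arrays of that age alone and to between 1 and 2 with 1 array left out. The count of members changing with age in mutant retinas, 2, was 1 with each array centred on its median, 1 with an intensity trend, 1 without the arrays of high Grifin signal, 1 with Grifin and Dcn as covariates (Hs3st1 in each of these), 0 with quantile normalization again, and 1 to 2 with 1 array left out. Array weights gave 1 member, Hs3st1, against 0, both for the change of the difference with age and for age in normal retinas. Hs3st2 over the 4 ages turned to -0.011 with quantile normalization again. The cause of these shifts was not tested. With the replicate number as a block the counts stayed at 2 over the 4 ages, 0 at 1 month and 2 months, 2 at 3 and 4 months, 2 in mutant retinas and 0 in normal retinas, and pairing within age changed no member's call. At 2 months, where the numbers pair the arrays by their correlations, that paired fit gave limma adjusted p = 0.32 for Hs3st1 and 0.319 for Hs3st5, each higher in mutant retinas in 3 of 3 pairs. Counts of calls over all probe sets moved by over 1.5 times as follows. At 1 month 4 became between 7 and 52 (array weights), at 2 months 43 became 1 without the arrays of high Grifin signal, 6 with the covariates, 2 with the 6 arrays alone and 68 with array weights, at 3 months 150 became 40 and at 4 months 161 became 103 with the 6 arrays alone. For the change with age 4 became 51 with array weights and 0 with either block, with the covariates and without the arrays of high Grifin signal. In mutant retinas 138 became 74 without those arrays and 51 with the covariates, and in normal retinas 9 became 20 after centring, 86 with array weights, 3 without those arrays and 0 with the covariates. With 1 array left out they ran from 3 to 13 at 1 month, 14 to 62 at 2 months, 66 to 168 at 3 months, 107 to 179 at 4 months, 0 to 31 for the change with age, 86 to 156 in mutant retinas and 1 to 51 in normal retinas. Signal over background is not known for dim members, which limits Hs3st3a1, Hs3st3b1 and Hs3st6.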
